A study of Mus musculus with 10 samples.

Results

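Microglia, the resident macrophages of the brain, and the complement proteins they make were followed here through 33 genes in the hippocampus of the Ts65Dn mouse, a model of Down syndrome. The genes were chosen by name, with earlier results of these data known. They form groups of 11 homeostatic, 14 activation, 5 complement and 3 macrophage genes. Of them 31 had a transcript cluster (the set of probes that measures 1 transcript) with their symbol, 1 each, among the 19938 genes of the array. Spp1 and C3 were not analysed here. None of the 33 genes lies on the segments that Ts65Dn carries in 3 copies, so both genotypes have the same number of copies of each: 1 of Gpr34, which lies on chromosome X of these males, and 2 of the others.

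The Ts65Dn group held 5 males with the extra chromosome and the control group 5 male littermates without it, all aged 16 weeks and all on an F1 hybrid B6C3B background, which is a mixed background. The additional chromosome holds the part of mouse chromosome 16 from Mrpl39 to Zbtb21 and, beside it, the centromeric part of chromosome 17, which is not homologous to human chromosome 21. RNA of both hippocampi of a mouse was hybridised to 1 Affymetrix Mouse Gene 1.0 ST array. The unit throughout is the log2 signal after RMA, a method that corrects background and brings all arrays to 1 distribution. Because the tissue was bulk hippocampus, fewer microglia and less RNA per microglial cell cannot be told apart.

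In the healthy brain microglia carry surface receptors such as CX3CR1 and P2RY12, with which they sense neurons and purine nucleotides, and depend on the CSF1 receptor for survival. In activated microglia phagocytic and antigen receptors typically increase while P2RY12 and related homeostatic genes decline. The classical pathway of complement begins with C1q, a protein built from the A, B and C chains that C1qa, C1qb and C1qc encode. In the brain microglia make most of it, and C1q with the downstream components C4 and C3 tags synapses for removal during development.

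The 3 C1q genes lie side by side on chromosome 4 of the GRCm38 assembly: C1qb at 136880126 to 136886200, C1qc at 136889801 to 136892936 and C1qa at 136895916 to 136898844. They and Itgam were highest in 1 mouse described further on and P2ry12 was lowest in it, and for that reason promoters of these genes are shown. Of the members, 24 matched the RefSeq table of promoters (GRCm38.p6, 250 bases before to 50 bases after a start), but C1qa did not. The letters GAGGAA, searched on both strands, are a form of the sites that the myeloid transcription factor PU.1 can bind. They are set in capitals, also where they read TTCCTC as the reverse complement. All sequences run 5′ to 3′ on the strand of the gene. C1qb is at chr4:136886151-136886450 (minus strand), C1qc at chr4:136892865-136893164 (minus strand), Itgam at chr7:128062390-128062689 (plus strand) and P2ry12 at chr3:59262936-59263235 (minus strand).
C1qb: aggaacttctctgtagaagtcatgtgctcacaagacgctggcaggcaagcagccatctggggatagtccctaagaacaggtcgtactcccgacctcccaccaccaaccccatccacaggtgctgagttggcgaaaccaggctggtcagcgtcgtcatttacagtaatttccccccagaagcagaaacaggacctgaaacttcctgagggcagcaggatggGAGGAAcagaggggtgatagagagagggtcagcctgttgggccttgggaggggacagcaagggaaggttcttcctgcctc
C1qc: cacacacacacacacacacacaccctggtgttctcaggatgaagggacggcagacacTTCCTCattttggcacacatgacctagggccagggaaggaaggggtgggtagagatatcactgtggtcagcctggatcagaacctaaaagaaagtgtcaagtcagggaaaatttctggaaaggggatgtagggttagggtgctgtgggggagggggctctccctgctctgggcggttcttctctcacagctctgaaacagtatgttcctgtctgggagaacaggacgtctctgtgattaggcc
Itgam: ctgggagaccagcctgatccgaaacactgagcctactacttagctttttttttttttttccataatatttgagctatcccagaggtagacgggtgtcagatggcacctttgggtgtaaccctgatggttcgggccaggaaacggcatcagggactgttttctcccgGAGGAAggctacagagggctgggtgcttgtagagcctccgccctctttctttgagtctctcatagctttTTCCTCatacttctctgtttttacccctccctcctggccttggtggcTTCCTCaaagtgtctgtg
P2ry12: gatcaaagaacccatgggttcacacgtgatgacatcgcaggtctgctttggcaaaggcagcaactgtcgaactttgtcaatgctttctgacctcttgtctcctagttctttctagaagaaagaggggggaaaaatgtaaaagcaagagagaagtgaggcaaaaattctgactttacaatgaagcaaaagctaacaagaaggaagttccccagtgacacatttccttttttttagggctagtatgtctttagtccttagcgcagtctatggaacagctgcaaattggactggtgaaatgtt

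The C1qb and C1qc promoters held the 6 letters 1 time each, the Itgam promoter 3 times and the P2ry12 promoter 0 times. Of all 32851 promoters listed, 28.3% held them at least 1 time. Of the 29 promoters listed for members 16 held them (55.2%), and by gene 15 of 24 members did. By their place in that mouse, Ts65Dn mouse 4, the letters were held by 5 of 7 members that were above all other mice, 0 of 3 below them and 9 of 12 within their range, which leaves out Spp1 and C3. A match of letters is a description of the sequence and not a site. Other forms of such sites were not searched, so 0 matches do not mean that a site is absent.

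The question was whether the trisomy changed the RNA of microglia and complement genes. No single gene passed the threshold: with limma, which fits a linear model to each transcript cluster, 0 of 31 members had an adjusted p under 0.05 (Benjamini-Hochberg over all 23410 transcript clusters tested). In the whole comparison 0.316% of transcript clusters were called, 73 higher and 1 lower in Ts65Dn. The adjusted p was 1.00 for every member. An unadjusted p under 0.05 was reached by 2 of 31 members (6.45%), against 3.16% of all transcript clusters tested. Both, Selplg and Sall1, were lower in Ts65Dn, a direction in which 1.43% of all transcript clusters reached that level, and 0 members were higher, against 1.73% of all. A method that ranks the fold changes of all pairs of a Ts65Dn and a control array called 3 members, Ptprc and C1qc higher and Selplg lower, and 5.36% of all transcript clusters. Its cutoffs are the outer tails of a normal curve fitted to its own scores, so a share near 5.36% is called by construction. Ts65Dn and control values overlapped for all 31 members. Over all transcript clusters 0.884% did not overlap, so 0 of 31 is near that share and says nothing particular about the members.

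The estimated differences were small as well as uncalled. The median difference (Ts65Dn minus control) over the 31 members was 0.01, against -0.00 over all transcript clusters tested, and single differences lay between -0.25 (Fcrls) and 0.27 (C1qc). For 28 members the 95% interval of the difference stayed within 1.5-fold in either direction, and for 23 within 1.3-fold. Fcrls, C1qc and Lyz2 had wider intervals than 1.5-fold. Of the 4 complement genes 0 stayed within 1.3-fold. Among all transcript clusters 23118 of 23410 stayed within 1.5-fold and 22417 within 1.3-fold, larger shares than among the members.

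**Figure D1:**
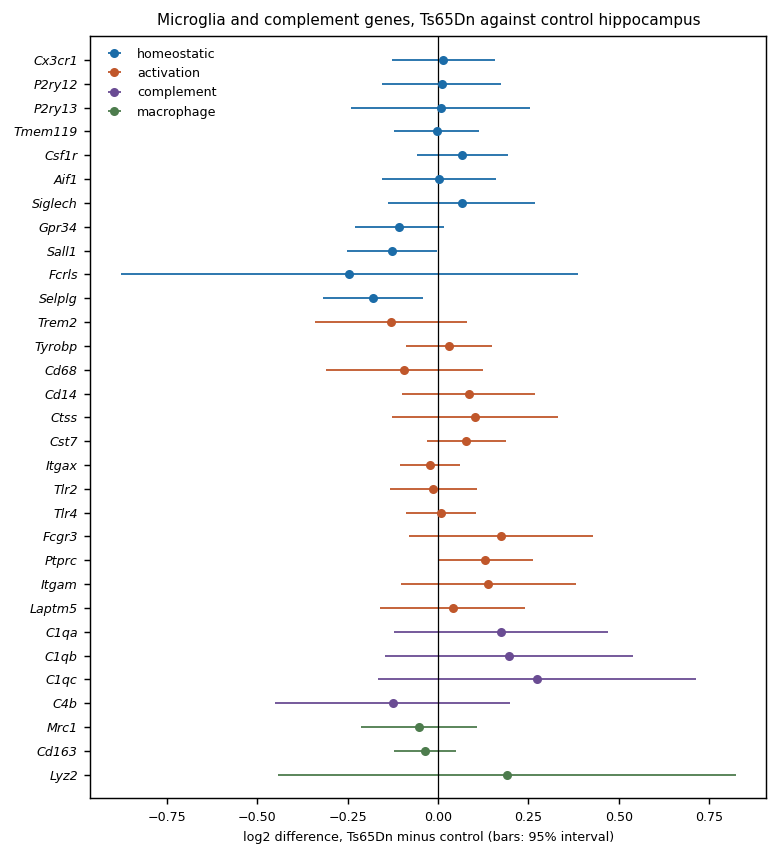
Log2 difference (Ts65Dn minus control) of each of the 31 members, one gene per row; points are the limma estimate, bars its 95% interval and colours the groups of genes (n = 5 mice per genotype). Estimates lie between -0.25 and 0.27, and the intervals of Selplg and Sall1 alone leave out 0, with an adjusted p of 1.00 for both.

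The homeostatic genes as a group did not separate the genotypes. Their median difference was 0.00, with 6 of 11 above 0. The mean of the 11 genes per mouse was 8.26, 8.19, 8.30, 8.31 and 8.36 in Ts65Dn mice 1 to 5, against 8.43, 8.26, 8.29, 8.29 and 8.36 in controls 1 to 5, so that the lowest value was a Ts65Dn mouse and the highest a control. Group means were 8.28 ± 0.06 in Ts65Dn and 8.33 ± 0.07 in controls (SD, n = 5 each), and the difference of -0.04 is smaller than either SD.

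For 7 of the 11 genes the difference was no larger than 0.07 in size. Cx3cr1, the fractalkine receptor, averaged 9.47 ± 0.14 in Ts65Dn and 9.46 ± 0.06 in controls. P2ry12, the purinergic receptor that guides microglial processes, averaged 8.39 ± 0.14 in Ts65Dn and 8.38 ± 0.12 in controls, and its neighbour P2ry13 averaged 9.27 in both. Tmem119, a membrane protein used to tell microglia from other macrophages, averaged 8.89 ± 0.10 in Ts65Dn and 8.89 ± 0.08 in controls. Csf1r, the receptor for CSF1 and IL-34, averaged 9.68 ± 0.09 in Ts65Dn and 9.61 ± 0.10 in controls and differed by 0.07 ± 0.06 (SE). Aif1, which encodes the microglial marker IBA1, averaged 6.71 in Ts65Dn and 6.70 in controls, and Siglech, a sialic acid-binding lectin, differed by 0.06 ± 0.09 (SE).

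Selplg, which encodes the P-selectin ligand PSGL-1 (chromosome 5, 113817798 to 113832528), had the smallest unadjusted p of all members. Its signal was 9.47, 9.35, 9.35, 9.11 and 9.38 in the Ts65Dn mice, against 9.62, 9.48, 9.49, 9.51 and 9.45 in the controls. Ts65Dn mouse 4 was the lowest and Ts65Dn mouse 1 alone reached into the control range. The difference was -0.18 ± 0.06 (SE, 95% interval -0.32 to -0.04, limma adjusted p = 1.00). Without Ts65Dn mouse 4 it was -0.12 ± 0.05.

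Sall1, a transcription factor that maintains microglial identity (chromosome 8, 89027242 to 89044162), read 8.17, 8.06, 7.92, 7.86 and 8.08 in the Ts65Dn mice, against 8.18, 8.18, 8.15, 8.12 and 8.08 in the controls. Ts65Dn mice 3 and 4 were the lowest of the 10. The difference was -0.13 ± 0.06 (SE, 95% interval -0.25 to -0.00), and -0.09 ± 0.05 without Ts65Dn mouse 4, where the unadjusted p no longer was under 0.05. Gpr34, a lysophosphatidylserine receptor, differed by -0.11 ± 0.06 at a signal near background.

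Fcrls, an Fc receptor-like scavenger receptor of mouse microglia (chromosome 3, 87250736 to 87263765), took 2 levels among the mice. It read 7.05, 7.03, 8.22, 8.22 and 8.33 in the Ts65Dn mice and 8.06, 8.08, 7.40, 8.30 and 8.23 in the controls. Ts65Dn mice 1 and 2 and control 3 lay at or below 7.40 and the other 7 mice at or above 8.06, with a gap of 0.67 between. The difference was -0.25 ± 0.29 (SE, 95% interval -0.88 to 0.39). Without Fcrls the homeostatic mean differed by -0.02, with 8.33 ± 0.03 in Ts65Dn and 8.36 ± 0.08 in controls (an alternative chosen after its values were seen).

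The activation genes gave a median difference of 0.04, with 9 of 13 above 0. Their mean per mouse was 7.25, 7.27, 7.27, 7.46 and 7.34 in Ts65Dn, against 7.35, 7.26, 7.28, 7.21 and 7.28 in controls. Ts65Dn mouse 4 was the highest and the other 4 lay inside the control range. Group means were 7.32 ± 0.09 in Ts65Dn and 7.28 ± 0.05 in controls (SD, n = 5 each). The difference of 0.04 was 0.01 without Ts65Dn mouse 4, and 0.17 with the median over the 13 genes in place of their mean.

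Ptprc, which encodes CD45, had the smallest unadjusted p among members with a higher signal in Ts65Dn. It read 6.27, 6.29, 6.40, 6.58 and 6.34 in the Ts65Dn mice, against 6.20, 6.26, 6.27, 6.34 and 6.16 in the controls, and the difference was 0.13 ± 0.06 (SE, 95% interval -0.00 to 0.26). The Ts65Dn mice were shifted upwards with an overlap of the ranges, and without Ts65Dn mouse 4 the difference was 0.08 ± 0.05. Itgam, the alpha chain of complement receptor 3, read 7.52, 7.57, 7.59, 8.17 and 7.61 in the Ts65Dn mice, against 7.56, 7.50, 7.70, 7.46 and 7.56 in the controls. Fcgr3, a low-affinity receptor for IgG, read 7.41, 7.23, 7.21, 7.88 and 7.63 in the Ts65Dn mice, against 7.25, 7.33, 7.16, 7.32 and 7.43 in the controls. For both genes Ts65Dn mouse 4 stood highest, and the differences of 0.14 ± 0.11 and 0.17 ± 0.12 (SE) became 0.02 and 0.07 without it.

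Of the other activation genes Ctss, a lysosomal protease, was highest in Ts65Dn mouse 5 at 9.63 and differed by 0.10 ± 0.10 (SE). Trem2, a lipid-sensing receptor, differed by -0.13 ± 0.10, and Tyrobp, the adaptor through which it signals, by 0.03 ± 0.05. Trem2 was highest in control 1 at 8.86, and the other 9 mice lay between 8.28 and 8.61. Cd68 and Laptm5, both lysosomal membrane proteins, differed by -0.09 ± 0.10 and 0.04 ± 0.09. Tlr2, a receptor for bacterial lipoproteins, differed by -0.01 ± 0.05. Cd14, Cst7, Itgax and Tlr4 had a mean signal below 5.91, the level under which 95% of the 1035 olfactory receptor transcript clusters lay, as did Gpr34, Mrc1 and Cd163. Olfactory receptors are taken as near background in this tissue, so a difference in these 7 genes would be understated.

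**Figure D2:**
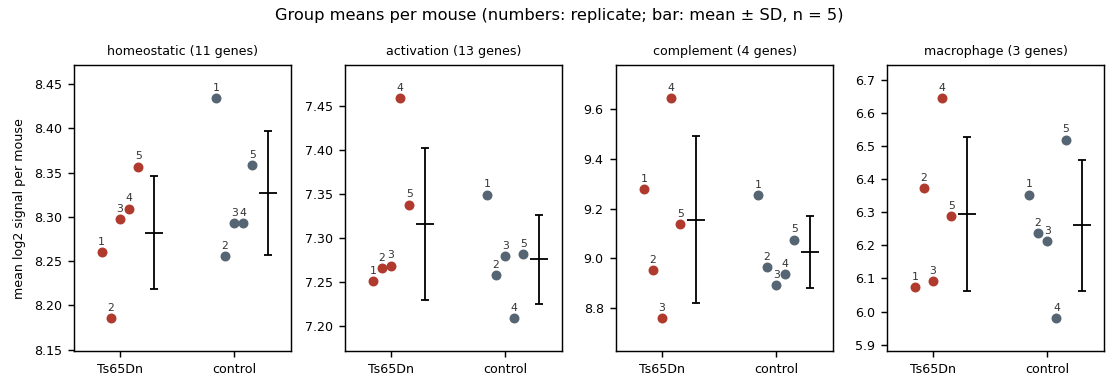
Mean log2 signal per mouse over the homeostatic, activation, complement and macrophage genes, in 4 panels with separate scales; points are mice with their replicate number, and bars give mean ± SD (n = 5 per genotype). The genotypes overlap in each panel, and Ts65Dn mouse 4 is the highest of 10 for activation (7.46), complement (9.64) and macrophage genes (6.64).

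The complement genes had the highest median difference of the groups, 0.18 over 4 genes, and it rested on 1 mouse. The mean of C1qa, C1qb, C1qc and C4b per mouse was 9.28, 8.95, 8.76, 9.64 and 9.14 in Ts65Dn, against 9.26, 8.97, 8.89, 8.94 and 9.08 in controls. Both the lowest and the highest mouse were Ts65Dn. Group means were 9.15 ± 0.34 in Ts65Dn and 9.03 ± 0.15 in controls (SD, n = 5 each). Their difference of 0.13 was 0.01 without Ts65Dn mouse 4. The median difference over the 4 genes was 0.03 without it.

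C1qa read 8.46, 8.47, 8.47, 9.21 and 8.66 in the Ts65Dn mice, against 8.49, 8.45, 8.41, 8.35 and 8.70 in the controls. C1qb read 10.51, 10.35, 10.19, 11.19 and 10.40 in the Ts65Dn mice, against 10.53, 10.34, 10.22, 10.27 and 10.31 in the controls. For both genes 4 of 5 Ts65Dn mice lay within or next to the control range and Ts65Dn mouse 4 far above it. C1qc read 9.73, 8.98, 8.88, 9.86 and 9.42 in the Ts65Dn mice, against 9.56, 8.87, 8.91, 8.91 and 9.24 in the controls, with a wide spread in both genotypes. The differences were 0.17 ± 0.13, 0.20 ± 0.16 and 0.27 ± 0.20 (SE) for C1qa, C1qb and C1qc, and the 95% interval of the last ran from -0.17 to 0.71. Without Ts65Dn mouse 4 they were 0.04 ± 0.07, 0.03 ± 0.08 and 0.15 ± 0.19.

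C4b, the next component of the classical pathway, read 8.41, 8.01, 7.51, 8.31 and 8.07 in the Ts65Dn mice, against 8.43, 8.21, 8.04, 8.21 and 8.05 in the controls. Ts65Dn mouse 3 was the lowest of 10, and the difference was -0.13 ± 0.15 (SE). C4b has a near-identical neighbour, C4a, and their probes may share signal.

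**Figure D3:**
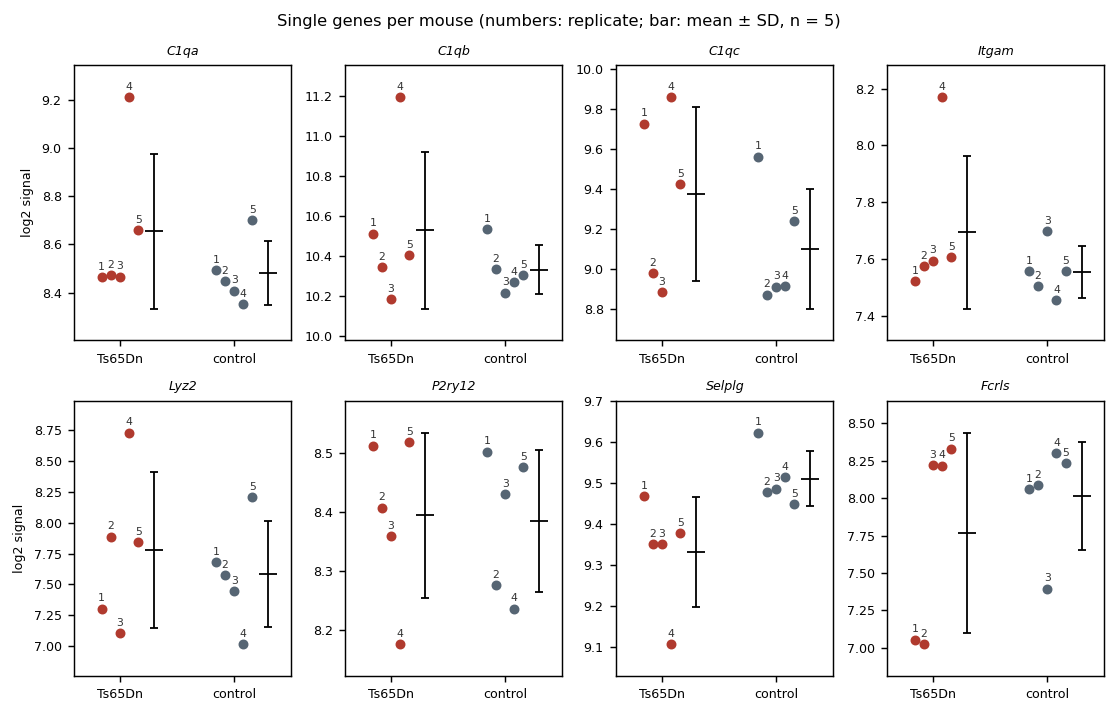
Log2 signal per mouse of 8 members, each panel with its own scale; points are mice with their replicate number, and bars give mean ± SD (n = 5 per genotype). Ts65Dn mouse 4 is the highest of 10 for C1qa (9.21), C1qb (11.19), C1qc (9.86), Itgam (8.17) and Lyz2 (8.73) and the lowest for P2ry12 (8.18) and Selplg (9.11), while Fcrls falls into 2 levels in both genotypes.

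The macrophage genes had a mean per mouse of 6.07, 6.37, 6.09, 6.64 and 6.29 in Ts65Dn, against 6.35, 6.24, 6.21, 5.98 and 6.52 in controls. Group means were 6.29 ± 0.23 in Ts65Dn and 6.26 ± 0.20 in controls (SD, n = 5 each), and the ranges overlapped. Mrc1 and Cd163, the mannose and haemoglobin scavenger receptors of macrophages at the borders of the brain, were near background and differed by -0.05 ± 0.07 and -0.04 ± 0.04 (SE). Lyz2, lysozyme of myeloid cells, read 7.30, 7.89, 7.11, 8.73 and 7.84 in the Ts65Dn mice, against 7.68, 7.58, 7.45, 7.02 and 8.21 in the controls. It varied more within a genotype than between them. The difference was 0.19 ± 0.29 (SE), and -0.05 without Ts65Dn mouse 4. Lyz2 has a near-identical neighbour, Lyz1, and their probes may share signal.

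Markers of the choroid plexus, the tissue in the ventricles that makes cerebrospinal fluid, also differed widely between mice. The mean of 8 measured choroid plexus markers (of 10 listed, Ttr and Folr1 among them) was 7.08, 9.40, 6.93, 8.77 and 7.89 in the Ts65Dn mice, against 7.59, 8.27, 7.04, 6.99 and 9.17 in the controls. The 3 mice with the highest means, Ts65Dn 2 and 4 and control 5, were also the 3 highest for Lyz2. With the choroid plexus mean as a covariate the macrophage mean differed by -0.00 and the complement mean by 0.12 between genotypes.

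One Ts65Dn mouse was the highest of all mice for many members. Ts65Dn mouse 4 was above all other 9 mice for 12 of 31 members (38.7%) and below all of them for 4 (12.9%). Over all transcript clusters tested it was the highest for 12.4% and the lowest for 18.5%. Its share of highest members was thus above that of all transcript clusters, and its share of lowest members was not. The members above all others were Cx3cr1, Csf1r, Tyrobp, Cd14, Tlr4, Fcgr3, Ptprc, Itgam, C1qa, C1qb, C1qc and Lyz2. Csf1r (9.76, next mouse 9.75) and the near-background Tlr4 (5.32, next mouse 5.31) were so by a small margin. Those below all others were P2ry12, Sall1, Selplg and Itgax.

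By size, Lyz2 was 2.24-fold, C1qb 1.80-fold, C1qa 1.64-fold, C1qc 1.61-fold, Itgam 1.52-fold and Fcgr3 1.46-fold the geometric mean of the other 9 mice in Ts65Dn mouse 4. Cx3cr1 was 1.22-fold and Csf1r 1.10-fold that mean. Selplg was at 0.786, Sall1 at 0.843 and P2ry12 at 0.848 of it. By log2 signal, Aif1 at 6.75 and Trem2 at 8.37 lay within the range of the other mice. These values describe 1 mouse, with no replicate of that pattern among the 10. Control 1 was the highest mouse for 10 of 31 members (32.3%, against 13.4% of all transcript clusters), among them P2ry13, Tmem119, Aif1, Selplg, Trem2, Cd68 and Laptm5.

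**Figure D4:**
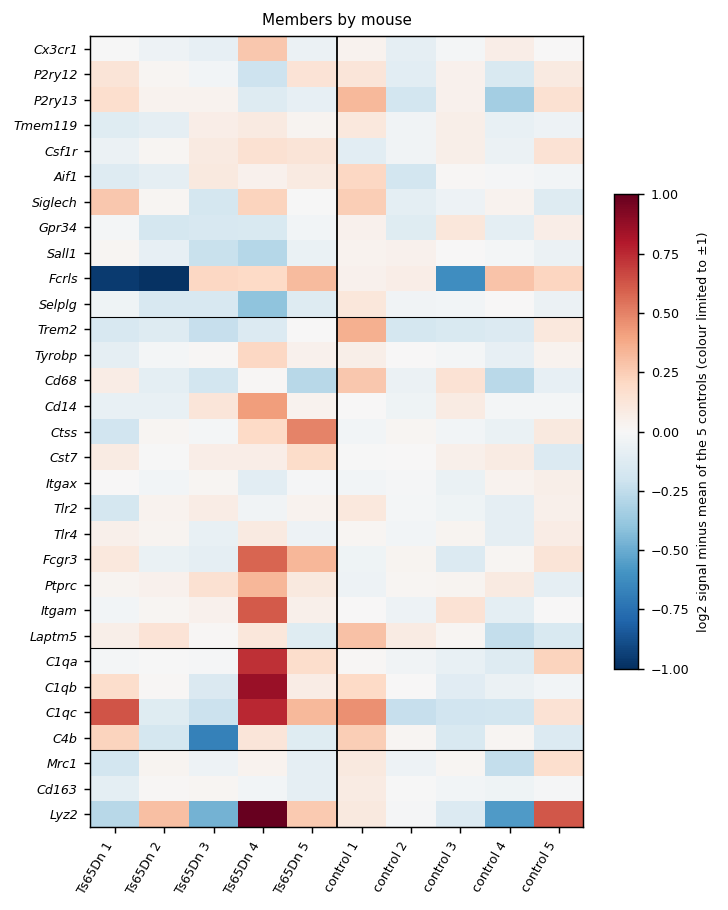
Log2 signal of each member in each mouse minus the mean of the 5 controls; rows are genes in their groups, columns the 5 Ts65Dn mice and then the 5 controls, and colours stop at a difference of 1 in either direction. The column of Ts65Dn mouse 4 is raised for C1qa, C1qb, C1qc, Itgam, Fcgr3 and Lyz2 and lowered for Selplg and Sall1, and Fcrls is low in Ts65Dn 1 and 2 and control 3.

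Markers of blood-borne cells were followed beside these values. The mean of 6 granulocyte markers was 5.40 in Ts65Dn mouse 4, below the 5.41 of Ts65Dn mouse 3 and above the controls (5.33 to 5.39), and 4 of the 6 had a mean near background. The mean of 6 measured lymphocyte markers (of 7) was 5.78 there, the lowest of 10 mice. The 2 measured erythroid markers (of 5) averaged 6.84, against 6.82 to 7.16 in the Ts65Dn mice and 6.75 to 7.08 in the controls. The 6 neuronal markers averaged 12.31 in that mouse, with 12.27 to 12.32 in the Ts65Dn mice and 12.28 to 12.33 in the controls. The part of these cells in the values of Ts65Dn mouse 4 was not tested.

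Other microglial genes, from a list of 31 that holds no member, showed the same mouse. Of 28 with a transcript cluster 0 were called, against 0.316% of all transcript clusters tested. Unc93b1, higher in Ts65Dn, was the 1 that reached an unadjusted p under 0.05 (3.57%, against 3.16% of all). The median difference was 0.02. Ts65Dn mouse 4 was the highest of 10 for 14 of the 28 (50%, against 12.4% of all transcript clusters tested). Fcer1g, the gamma chain of Fc receptors, read 9.01, 8.99, 8.92, 9.50 and 8.95 in the Ts65Dn mice, against 9.12, 8.96, 8.88, 8.68 and 8.81 in the controls. Ly86 at 10.79 (other mice 9.80 to 10.39), Bin2 at 8.04 (7.02 to 7.67) and Hpgds at 7.47 (6.65 to 7.05) were similarly high in that mouse, and were picked after their values were seen.

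The gene with the smallest unadjusted p in that list was Unc93b1, a chaperone that carries Toll-like receptors to endosomes. It read 8.005, 8.07, 8.10, 8.24 and 8.13 in the Ts65Dn mice, against 7.87, 7.92, 7.95, 7.93 and 8.08 in the controls, and differed by 0.16 ± 0.05 (SE, limma adjusted p = 0.976). All 5 Ts65Dn mice lay above controls 1 to 4, and control 5 lay among them. Cd53, a leukocyte tetraspanin, and Irf8, a transcription factor of the myeloid lineage, differed by 0.16 ± 0.08 and 0.08 ± 0.06.

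Genes of the damage-associated state, in which microglia surround plaques or injury, were not called either: 0 of 20, against 0.316% of all, with a median difference of 0.02. Their mean per mouse was 8.50 ± 0.03 in Ts65Dn and 8.46 ± 0.03 in controls (SD, n = 5 each), and the ranges overlapped. The difference of 0.04, with or without Ts65Dn mouse 4, was larger than either SD and was not tested. A large part of it came from 1 gene, Gpnmb, which differed by 0.49. The median of 0.02 was smaller than either SD, and 12 of the 20 genes were above 0. Of the 20 genes Cd52 alone reached an unadjusted p under 0.05 (5%, against 3.16% of all transcript clusters tested). Gpnmb, a lysosomal glycoprotein, had the widest difference, 0.49 ± 0.23 (SE, 95% interval -0.02 to 1.00), with 7.35, 6.65, 8.07, 7.58 and 7.33 in the Ts65Dn mice, against 7.01, 6.99, 6.54, 7.36 and 6.63 in the controls. Here Ts65Dn mouse 3, not mouse 4, was highest, and Ts65Dn mouse 2 lay among the lowest. Cd52, a surface glycoprotein of leukocytes, differed by 0.18 ± 0.08, Lgals3, which encodes galectin-3, by 0.15 ± 0.07 and Lilrb4a, an inhibitory receptor, by 0.05 ± 0.03.

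Among 31 other genes with a transcript cluster, of complement or of C1q-like proteins, 0 were called, against 0.316% of all transcript clusters tested. The median difference was -0.01. Clu and C1ql1, both lower in Ts65Dn, reached an unadjusted p under 0.05 (6.45%, against 3.16% of all). Clu, the complement inhibitor clusterin, made largely by astrocytes in brain, read 11.43, 11.48, 11.42, 11.50 and 11.56 in the Ts65Dn mice, against 11.52, 11.65, 11.58, 11.50 and 11.64 in the controls, and differed by -0.10 ± 0.04 (SE). C1ql1, a synaptic protein with a C1q-like domain, differed by -0.14 ± 0.06, and Masp1, a protease of the lectin pathway, by -0.12 ± 0.06. C3ar1, the C3a receptor, read 6.85, 6.81, 6.77, 7.51 and 6.79 in the Ts65Dn mice, against 6.71, 6.59, 6.61, 6.86 and 6.77 in the controls, and was another gene with its highest value in Ts65Dn mouse 4.

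Among 24 ligands and receptors that act on microglia 0 were called, against 0.316% of all transcript clusters tested. Myd88 was the 1 that reached an unadjusted p under 0.05 (4.17%, against 3.16% of all). Myd88, the adaptor of Toll-like and IL-1 receptors, differed by 0.11 ± 0.04 (SE), Il34, a neuronal ligand of CSF1R, by 0.11 ± 0.06, Tlr9 by -0.09 ± 0.05 and Tgfbr1, a TGF-beta receptor, by -0.11 ± 0.07. Of 8 border macrophage genes with a transcript cluster 0 were called and 1, Cd209f, reached that level (12.5% of a short list, against the same 3.16%). Cd209f, a lectin, differed by -0.15 ± 0.07, Stab1, a scavenger receptor, by 0.12 ± 0.06, Pf4, a chemokine, by -0.09 ± 0.06 and Cbr2, a carbonyl reductase, by 0.09 ± 0.06. Cd209f, Pf4 and Cbr2, like Lilrb4a, had a mean signal below 5.91, so their differences too would be understated.

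For comparison, 6 genes that are in 3 copies in Ts65Dn and are known in microglia were read from the same fit, and 5 of them were called. Ifnar1, a chain of the type I interferon receptor, read 9.54, 9.54, 9.39, 9.50 and 9.57 in the Ts65Dn mice, against 8.93, 9.01, 9.03, 9.02 and 9.15 in the controls, with no overlap (adjusted p = 0.00184). Il10rb rose by 0.53 ± 0.05 (adjusted p = 0.000864), Ifngr2 by 0.48 ± 0.05 (adjusted p = 0.00184), Ifnar2 by 0.65 ± 0.11 (adjusted p = 0.0346) and App by 0.27 ± 0.04 (adjusted p = 0.0161). Runx1, a transcription factor of the myeloid lineage, differed by 0.15 ± 0.07 and was not called (adjusted p = 1.00). All are expressed by other brain cells too, so the signal of bulk tissue does not assign them to microglia.

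How far members varied together was described by Pearson's r over the 10 mice, after centring each gene within its genotype. The points share arrays and 1 normalization, so the medians and several r are also given without Ts65Dn mouse 4. Same-numbered Ts65Dn and control mice also resembled each other for numbers 1, 2, 3 and 5, and r was not corrected for this. Over all 465 pairs of members the median r was 0.18, and it was 0.18 over the 9 mice without that mouse. Within the homeostatic group the median of 55 pairs was 0.18 and within the activation group that of 78 pairs was 0.15. Without Ts65Dn mouse 4 these medians were 0.28 and 0.01. The 3 pairs of C1q genes had a median r of 0.78, from 0.61 to 0.85, and of 0.39 without Ts65Dn mouse 4.

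Over all 465 pairs r ran from -0.86 (P2ry12 with Ptprc) to 0.93 (Cd14 with Itgam). Without Ts65Dn mouse 4 the range was -0.92 to 0.94. Siglech with C4b (r = 0.91) and Tyrobp with C1qa (r = 0.90) were also high. Cd14, Itgam, Tyrobp and C1qa were each highest in Ts65Dn mouse 4, and Cd14 was near background. For Cd14 with Itgam, Siglech with C4b and Tyrobp with C1qa, r without that mouse is not given here. Of further pairs, picked after their values were seen, C1qb went with Cx3cr1 (r = 0.90) and C1qa with Itgam (r = 0.87). Selplg ran against Itgam (r = -0.83). Without Ts65Dn mouse 4, r was 0.43 for C1qb with Cx3cr1, 0.18 for C1qa with Itgam, -0.22 for Selplg with Itgam and -0.74 for P2ry12 with Ptprc. The non-members whose pattern was most like the homeostatic mean were Rbl1, Ppp1r11, Fmo9, Olfr393, Olfml3, Olfr904, Ndst3, Zfp770, Exoc1 and Prpmp5, with r between 0.88 and 0.96 over 10 mice. Only Olfml3 of these was on the list of other microglial genes, and Olfr393 and Olfr904 are olfactory receptors with a mean signal of 4.60 and 4.52, below the near-background level.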

How the data were processed

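Microglia and complement genes were compared between 5 Ts65Dn and 5 control arrays, 1 per mouse. The authors deposited log2 signals after RMA. The submitters' notes name RMA, limma and mm10, versions not given. Such summaries shrink ratios near background. All 10 columns of values have a mouse, and 0 were left unmapped. The number of mice limits the precision.

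Of 35556 rows, the 23410 with at least 1 gene symbol in the platform annotation were tested. A gene was represented by its row with the highest mean. Coordinates and promoters come from RefSeq (GRCm38.p6), and probe positions were not used. A linear model with a single term for genotype was fitted by limma 3.58.1 (lmFit, then eBayes) under R 4.3.3. Tests were two-sided, Benjamini-Hochberg adjustment covered all tested rows, and calls were made at adjusted p under 0.05. The fit was tested on simulated data. Group means per mouse, and correlations, are descriptions without a test. Plots were drawn with matplotlib 3.10.9.

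The members and lists were chosen with earlier results of these data known. The text names all members, up to 4 genes of the smallest p in each pathway list, the 10 non-members most like the homeostatic mean and 6 genes in 3 copies, apart from those given as picked afterwards. The study ranked fold changes over pairs of arrays. Its program was not used here, and a rank method written anew over the 25 pairs served as an alternative. The remaining alternatives concerned which rows were tested, dim rows, normalization, variance models, array weights, a choroid plexus covariate, the replicate number as a block, other summaries of a group, and each array left out in turn.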

Additional observations from a re-analysis of the deposited data

Results flagged for a closer look

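In 122 groups of 5 mice (members, named genes and group means in each genotype) 13 had a highest or lowest mouse far from the other 4, by Dixon's gap criterion. Chance flags about 1 in 20 groups, or 6.1 here, and the genes are not independent of each other. Ts65Dn mouse 4 was the distant mouse, on the high side, in 8 of the 13: Cx3cr1 (9.72), Itgam (8.17), C1qa (9.21), C3ar1 (7.51), Fcer1g (9.50), Cd52 (6.57), Lilrb4a (5.38) and Stab1 (7.60). Control 1 was the distant mouse in 4, with high values of Cd163 (5.58), Tlr9 (7.80) and Il34 (8.88) and a low value of App (12.70). Control 3 was distant for Fcrls (7.40), on the low side, next to the 2 Ts65Dn mice that also had a low Fcrls signal. No group mean was distant in this sense.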

How the results depend on the processing

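With 5 mice per genotype, differences of the dim members are limited by signal near background. The rank method called 1255 transcript clusters (5.36%) in place of 74 and 3 members in place of 0: Ptprc and C1qc higher and Selplg lower, the only members called under any alternative. Its cutoffs are the outer tails of a normal curve fitted to its own scores, so a share near 5.36% is called by construction. The 2 counts are therefore not alike, and a call by the rank method is not evidence of a change. Every other alternative gave 0 members, and 51 to 63 transcript clusters with 1 array left out. The median over genes in place of the mean gave 0.17 in place of 0.04 for the activation genes. The cause was not tested. With 1 mouse left out the difference ranged from -0.06 to -0.02 for the homeostatic mean, 0.01 to 0.06 for activation, 0.01 to 0.23 for complement and -0.05 to 0.10 for macrophage genes. The lowest activation and complement values came without Ts65Dn mouse 4, and the macrophage mean was below 0 without Ts65Dn mouse 4 or control 4 (-0.04) and with the median over genes (-0.05), which gave 0.01 for the homeostatic genes. Over 726 pairs of a member and an alternative 32 had another sign, all of uncalled differences, in 11 members. The labels do not say what a replicate number shares. The correlation of deviations between same-numbered mice was 0.27 to 0.51 for numbers 1, 2, 3 and 5, whose Ts65Dn mice were each most like the control of their own number. It was 0.03 for number 4, whose Ts65Dn mouse was most like control 2. As the labels name no shared factor, the numbers were not taken as pairs. Variation shared by a number therefore stays in the main fit and in the correlations between genes. With the replicate number as a block 76 transcript clusters and 0 members were called, with the lowest adjusted p among members at 0.658 (Selplg), and the 4 group differences were the same by construction (complement 0.13).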

Other observations

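Against the mean of C1qa, C1qb and C1qc, a profile chosen after its values were seen, the non-members with the highest r over 10 mice were Eml4 (0.96), Fas (0.94) and Sfmbt2 (0.93). Without Ts65Dn mouse 4 these were 0.94, 0.83 and 0.79. Adipor1 was next (0.93 over 10 mice and 0.86 without that mouse), then Ccl12, a chemokine of the list of ligands and receptors (0.93 and 0.78). Against Fcrls, whose signal took 2 levels, the most negative r was that of Lrig1 (-0.97 over 10 mice and -0.97 without Ts65Dn mouse 4).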
